A study of Mus musculus with 2 samples.

Results

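The crystallins are the soluble proteins that fill the fibre cells of the eye lens. The 10 crystallin genes described here, Cryaa, Cryab, Cryba1, Cryba2, Cryba4, Crybb1, Crybb3, Cryga, Crygb and Crygs, were chosen by name among the 18193 genes with a probe set on the arrays, and every probe set whose only gene symbol in the platform annotation was one of these was taken. Earlier results of these data were known when these genes were chosen. They had 12 of the 34945 probe sets with 1 symbol. Cryab had 3 probe sets and each of the other 9 genes had 1. A further 2 probe sets name a crystallin of this set together with another gene and were not used.

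RNA of the whole head of newborn mice was hybridised to 1 Affymetrix expression array for each of 2 genotypes. Both heads came from offspring of mice with T(2:9)11H, a reciprocal translocation between Chr 2 and Chr 9, and both carried a uniparental duplication of each chromosome distal of its breakpoint. In the MatDp(dist2) head distal Chr 2 was derived from the mother and distal Chr 9 from the father, and in PatDp(dist2) it was the other way round. Neither head is a wild-type control. The number of animals behind each sample, their sex, the litters, how the heads were dissected and whether the eyes were kept are not stated in the labels.

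Each array gave 45101 signals on a linear scale, with a median of 201 for MatDp(dist2), 173 for PatDp(dist2) and the same trimmed mean of 500.002. The heads are named by genotype below, and where a pair of signals follows a gene, MatDp(dist2) comes first. A signal under 187, the floor used here, was treated as too dim to be measured, and 51.6% and 48.3% of probe sets lay at or above it. With 1 array per genotype there is no spread between animals and no test. Ratios are of the MatDp(dist2) over the PatDp(dist2) signal, and a gene under the floor on 1 array has only a bound, its brighter signal divided by the floor ("at least N-fold"). In bulk tissue such as this, fewer cells of a type and less RNA per cell cannot be told apart.

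Lens fibre cells lose their nuclei and organelles and keep the crystallins made during differentiation for life, and the dense, ordered packing of these proteins makes the lens transparent and refractive. The alpha crystallins Cryaa and Cryab belong to the small heat shock proteins and hold other proteins in solution, while the beta and gamma crystallins share a fold of Greek key motifs and serve as structural proteins. Cryaa and the beta and gamma members are made mainly in the lens and are called lens-restricted below. Cryab is also made in skeletal and heart muscle, glia and other tissues.

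All 9 lens-restricted crystallins had a strong signal in MatDp(dist2) and lay under the floor in PatDp(dist2). Their signals in MatDp(dist2) ran from 863 to 9053 with a median of 3456, and in PatDp(dist2) from 6.0 to 102.5 with a median of 28.8. The bounds ran from at least 4.61-fold to at least 48.4-fold, with a median of at least 18.5-fold (4.21 on the log2 scale). All 9 passed the fixed 2-fold difference in that direction and 0 passed it in the other. Among the 12483 genes at or above the floor on at least 1 array, 4.43% were at least 2-fold higher with MatDp(dist2) by the same rule, 3.47% were at least 2-fold higher with PatDp(dist2), and the median log2 ratio was 0.02. The members were chosen with earlier results of these data known, so their count beside these shares is no test. Of the 13 lens family genes with a probe set of their own, 11 had a bound of at least 2-fold. Crybb2 and Crygn, which are not among the members, did not. The bounds move with the floor, and with a floor at the 70th percentile of the signals their median was 2.89 on the log2 scale and Crygs was no longer 2-fold apart.

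**Figure D1:**
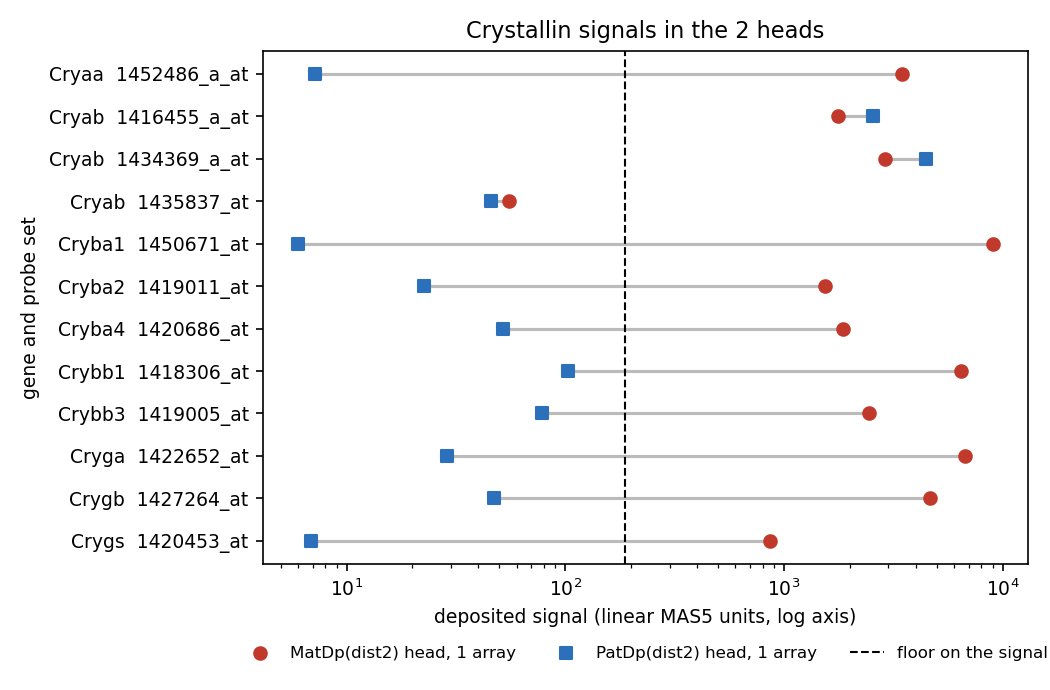
Deposited signal of each crystallin probe set (linear MAS5 units on a log axis) for MatDp(dist2) (red circles) and PatDp(dist2) (blue squares), 1 array each, with the floor of 187 as a dashed line. The 9 lens-restricted probe sets lie above the floor in MatDp(dist2) and below it in PatDp(dist2). Within each Cryab probe set the signals of the heads lie close together. The dimmest Cryab probe set, at 55.1 and 45.6, is under the floor in both heads.

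Of the alpha crystallins, Cryaa on Chr 17, the partner of Cryab in the chaperone complex of the lens, gave 3456 in MatDp(dist2) against 7.2 in PatDp(dist2), at least 18.5-fold apart. Its value in PatDp(dist2) was far under the floor.

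The acidic beta crystallins, which pair with basic partners in larger complexes, followed the same pattern. Cryba1 on Chr 11, which encodes the beta A3 and beta A1 proteins from 1 transcript, had a signal of 9053 with MatDp(dist2) against 6.0 with PatDp(dist2), at least 48.4-fold apart. Cryba2 on Chr 1 had 1544 and 22.6, at least 8.26-fold apart. Cryba4 on Chr 5 had 1870.2 and 52.1, at least 10.0-fold apart. Each of the 3 genes was measured in MatDp(dist2) only.

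The basic beta crystallins were likewise measured in MatDp(dist2) only. Crybb1 on Chr 5, a subunit with long terminal arms, had signals of 6472 and 102.5, at least 34.6-fold apart. Crybb3, also on Chr 5, had 2447 and 78.4, at least 13.1-fold apart. Both PatDp(dist2) values lay under the floor.

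The gamma crystallins are monomers, and Cryga and Crygb belong to a row of closely related genes on Chr 1. Cryga gave 6741 in MatDp(dist2) against 28.8 in PatDp(dist2), at least 36.0-fold apart. Crygb had 4640.4 and 47.4, at least 24.8-fold apart. Crygs on Chr 16, a gamma-like crystallin that is also made in the adult lens, had 863 and 6.9, at least 4.61-fold apart, a bound that is the smallest here because its MatDp(dist2) signal was the closest to the floor. Probe sets for the gamma genes of Chr 1 can bind each other's transcripts, since the genes are alike in sequence, so the share of each gene in these signals is uncertain.

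Cryab, on Chr 9, did not share the pattern. Its brightest probe set gave 2887 in MatDp(dist2) against 4443 in PatDp(dist2), 1.54-fold higher in the latter (log2 ratio of -0.62). Another had 1762 and 2565, 1.46-fold higher with PatDp(dist2). The remaining probe set lay under the floor in both heads, with 55.1 and 45.6. The 2 bright probe sets thus pointed the same way and stayed under a 2-fold difference.

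Cryab was not far from other genes as bright. Among the 1257 genes with a mean log2 signal of 11 to 12 on these arrays, the median log2 ratio was -0.14, and 14.0% had a ratio at or below that of Cryab. On the log2 scale the median bound of the lens-restricted crystallins lay 4.83 above the ratio of Cryab, and the lowest of those bounds, that of Crygs, was 2.21. Cryab lies on the chromosome that is reciprocally duplicated, and whether it lies distal of the breakpoint was not analysed here. Its signal sums what lens and other tissues make, and their shares were not measured.

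**Figure D2:**
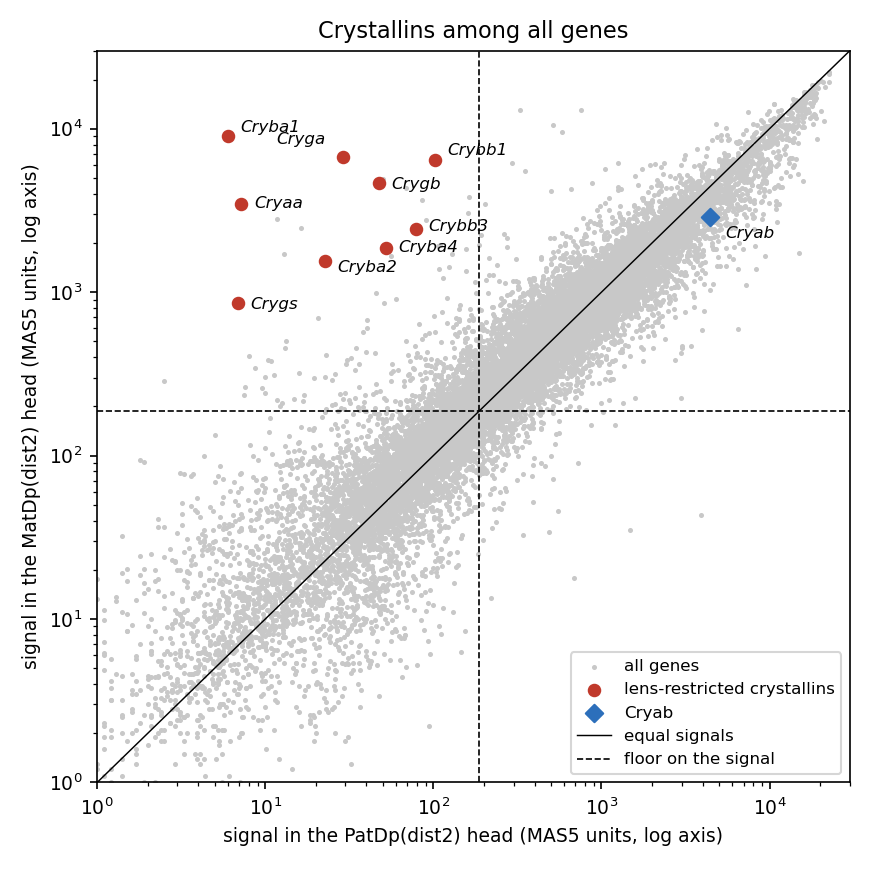
Signal of each gene in MatDp(dist2) against that in PatDp(dist2) (MAS5 units, log axes from 1 upward, so dimmer genes are off the axes), with 1 probe set per gene, the floor of 187 as dashed lines and equal signals as a solid line. The 9 lens-restricted crystallins (red) sit in the upper left, with 863 to 9053 against 6.0 to 102.5, and Cryab (blue diamond) sits near the line of equal signals.

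A signal this bright in 1 head and under the floor in the other was rare among the genes of these arrays. The counts that follow leave out genes measured in both heads, however far apart. A total of 5414 genes had a signal in MatDp(dist2) at or above the 863 of Crygs, a value chosen after the signals were seen, and 33 of these, or 0.610%, lay under the floor in PatDp(dist2). Besides the 9 lens-restricted members, which the choice of that value puts among the 33, they held the crystallins Crygd and Crygf and 22 genes that are no crystallins. In the opposite direction, 5294 genes reached that signal in PatDp(dist2) and 5 of them lay under the floor in MatDp(dist2). The 5 non-member genes with the largest bounds among those under the floor in PatDp(dist2) were Flg (signals 4959 and 49.9), the filaggrin precursor of the epidermis, Crygf (4344.5 and 68.4), a gamma crystallin, Asprv1 (3810 and 162), a protease of the outer epidermis, Crct1 (3682 and 85.0), a gene of cornified epithelium, and Rptn (3034 and 161), an epidermal matrix gene. Crygd and the forebrain gene Neurod6 (2752 and 90.1) came next, at least 15.0-fold and 14.7-fold apart. This order is by the size of the bound alone, which rests on 1 ratio per gene.

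The crystallins of the lens family outside the 10 members showed the same split. Crygd, a gamma gene of the Chr 1 row, had signals of 2800.4 and 11.8, at least 15.0-fold apart. Crygf had 4344.5 and 68.4, at least 23.2-fold apart, from a probe set whose name marks probes that can also bind other transcripts. Crybb2, a basic beta crystallin of Chr 5, had 299 and 75.0, at least 1.60-fold apart. Crygn was at 264 and 7.6, at least 1.41-fold apart. Together with the members, 13 of the 15 lens family genes listed had a probe set of their own, and all 13 lay at or above the floor in MatDp(dist2) and below it in PatDp(dist2), 11 of them with a bound of at least 2-fold.

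Like most measured genes, those that are called crystallins but are not lens proteins of this family did not pass a 2-fold difference. Of 8 such genes, among them enzymes and large proteins with crystallin-like folds, 0 were at least 2-fold apart in either direction. Of all measured genes 4.43% were so with MatDp(dist2) higher and 3.47% with PatDp(dist2) higher. The median log2 ratio of the 8 genes was 0.06. With a floor at the 70th percentile of the signals it was -0.07, and under the other alternatives that give a median it stayed above 0, at 0.15 or less. Crym, a thyroid hormone binding protein, gave 802 in MatDp(dist2) against 587 in PatDp(dist2). Cryz, a quinone reductase, had 665 and 1146, and Crybg1 had 264 and 188. The largest of these differences, by the brightest probe set of each gene, was that of Cryz, 1.72-fold and toward PatDp(dist2). Its other probe set was 1.28-fold apart the same way. A dimmer probe set of Cryl1 had 122 and 355, at least 1.90-fold higher with PatDp(dist2).

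The promoters of the lens-restricted members are shown because these genes differed together. RefSeq's promoter table for GRCm38.p6 held all 9 of them, and the 150 bases before the gene start are printed for the 6 that hold TATAAA or TATATA. These are an alpha, an acidic beta, a basic beta and 3 gamma genes, printed 5′ to 3′ on the strand of the gene. Other forms of the TATA box were not searched for. Capitals mark TATAAA or TATATA, forms of the TATA box, TGCTGA, the core of the recognition element of Maf factors, and AACAAT and CTTTGTT, which are forms of the Sox motif, on either strand, so that CTTTGTT also reads as AACAAAG.
Cryaa: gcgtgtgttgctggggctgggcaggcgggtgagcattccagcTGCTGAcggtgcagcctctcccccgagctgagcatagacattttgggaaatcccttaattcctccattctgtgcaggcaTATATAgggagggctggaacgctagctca
Cryba1: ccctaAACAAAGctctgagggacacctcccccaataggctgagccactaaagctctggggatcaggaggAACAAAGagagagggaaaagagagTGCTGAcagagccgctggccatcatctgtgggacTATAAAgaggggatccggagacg
Crybb1: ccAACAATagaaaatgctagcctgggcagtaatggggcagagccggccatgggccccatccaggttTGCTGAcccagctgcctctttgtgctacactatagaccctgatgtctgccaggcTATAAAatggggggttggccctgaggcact
Cryga: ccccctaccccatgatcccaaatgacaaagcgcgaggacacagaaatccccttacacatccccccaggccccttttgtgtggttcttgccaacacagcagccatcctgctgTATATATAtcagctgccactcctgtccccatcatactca
Crygb: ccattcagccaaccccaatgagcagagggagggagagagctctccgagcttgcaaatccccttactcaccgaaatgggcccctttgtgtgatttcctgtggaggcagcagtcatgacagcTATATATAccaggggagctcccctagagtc
Crygs: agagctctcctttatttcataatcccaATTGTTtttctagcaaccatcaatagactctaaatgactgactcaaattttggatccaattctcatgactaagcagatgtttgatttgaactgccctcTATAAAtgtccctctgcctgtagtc
These windows lie at chr17:31677781-31677930 (plus strand) for Cryaa, chr11:77725294-77725443 (minus strand) for Cryba1, chr5:112255670-112255819 (plus strand) for Crybb1, chr1:65103364-65103513 (minus strand) for Cryga, chr1:65082291-65082440 (minus strand) for Crygb and chr16:22811411-22811560 (minus strand) for Crygs.

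TATAAA or TATATA, which can overlap each other, was found in 6 of the 9 windows, those of Cryaa, Cryba1, Crybb1, Cryga, Crygb and Crygs, and in 9.48% of the 32851 promoter windows of the same length in the table. TGCTGA was found in 6 of 9, those of Cryaa, Cryba1, Cryba2, Cryba4, Crybb1 and Crybb3, and in 10.1% of all windows. It was in no gamma window, and these letters say nothing of sites farther away. AACAAT was found in the windows of Crybb1 and Crygs (5.31% of all windows) and CTTTGTT in that of Cryba1 (2.90%). The windows of Cryga and Crygb were 58.0% identical in a global alignment, the highest of all pairs, and shared an unbroken run of 12 bases. All other pairs were 41.6% to 52.2% identical and shared runs of up to 10 bases. A match to a motif is a description of the letters and was not tied to the signals.

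Few of the genes next to the lens-restricted crystallins passed a 2-fold difference, much as among all measured genes. Taking the 3 nearest genes with a probe set on each side of each member, crystallins left out, gave 42 genes, of which 29 were measured on at least 1 array. Of these, 1 was at least 2-fold higher with MatDp(dist2) and 0 were at least 2-fold higher with PatDp(dist2). Over all measured genes the shares were 4.43% and 3.47%. Log2 ratios of the neighbours ran from -0.68 to 1.26 with a median of 0.03. The exception was Miat, a noncoding RNA near Cryba4 and Crybb1, with signals of 3068 and 1278. Next to Cryab, the small heat shock gene Hspb2 had 745 and 915, and Dlat, a subunit of pyruvate dehydrogenase, had 1673 and 3978, 2.38-fold higher with PatDp(dist2). The lens-restricted members themselves are spread over Chr 1, 5, 11, 16 and 17, none of which is Chr 2 or Chr 9.

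**Figure D3:**
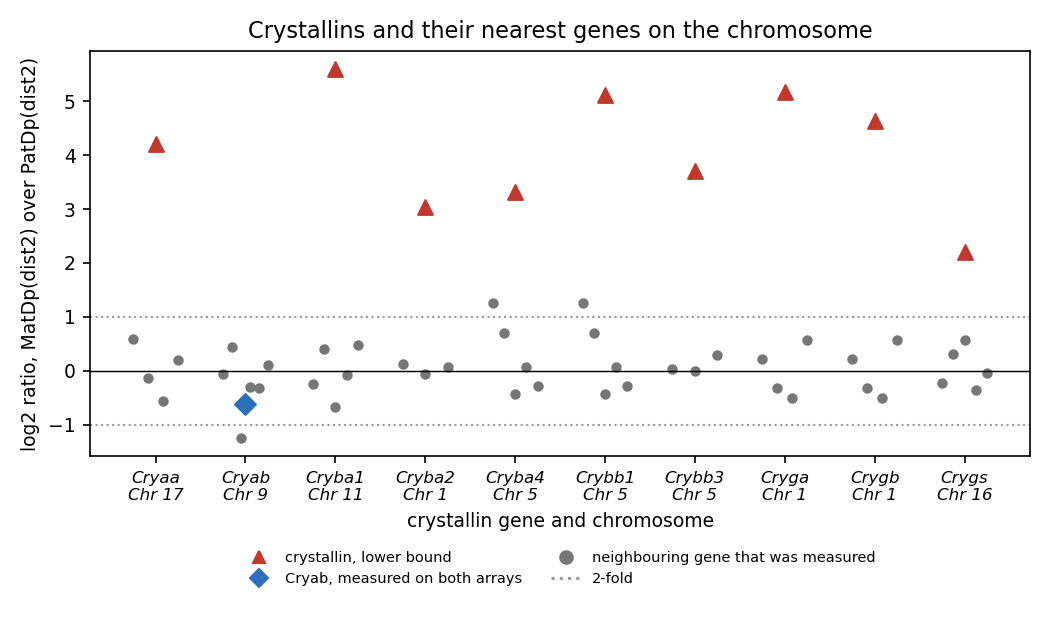
Log2 ratio of each crystallin (red triangles for lower bounds, blue diamond for Cryab, measured on both arrays) and of its nearest measured genes on the chromosome (grey circles), with 2-fold as dotted lines. The lens-restricted crystallins lie at 2.21 and above, and their neighbours lie between -0.68 and 1.26.

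Of 10 further lens fibre genes on the arrays, 4 were measured in MatDp(dist2) only, 3 in both heads and 3 in neither. Lim2, a fibre membrane protein, gave 611 in MatDp(dist2) against 132 in PatDp(dist2), at least 3.27-fold apart. Mip, the water channel aquaporin 0, had 364 and 30.4, at least 1.95-fold apart. The beaded filament genes Bfsp2 on Chr 9 and Bfsp1 on Chr 2 had 248 and 47.9, and 194 and 29.4, for bounds of 1.32-fold and 1.03-fold. These 4 lay at or above the floor in MatDp(dist2) and below it in PatDp(dist2), except that Bfsp1 was below it in both heads with quantile normalization or the loess fit. With a floor at the 70th percentile of the signals Mip, Bfsp1 and Bfsp2 were under it in both heads and Lim2 was no longer 2-fold apart. Of the 7 measured fibre genes 1 was at least 2-fold higher with MatDp(dist2) and 0 in PatDp(dist2). The shares over all measured genes were 4.43% and 3.47%. The median log2 ratio of the fibre genes was 0.19 (1.04 with a floor at the 30th percentile of the signals). Those under the floor in both heads were Birc7 (9.8 and 11.1), Grifin (124 and 45.6) and Dnase2b (59.4 and 28.4). The genes measured in both heads lay close to equal signals, Gja3 with 344 and 333, Tdrd7 with 637 and 709.5, and Caprin2, a fibre RNA-binding protein, with 357.5 and 313. The list has 13 genes.

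Transcription factors of lens development act in the brain as well. Of 10 measured, Six3 and Sox2 were at least 2-fold higher with MatDp(dist2) and 0 in PatDp(dist2), beside 4.43% and 3.47% of all measured genes. The median log2 ratio of the 10 was 0.67, and 0.31 with the mean over probe sets. Six3, a factor of eye and forebrain, had signals of 517 and 219, and Sox2, a partner of Pax6 at crystallin genes, had 1865 and 899. Pax6 on Chr 2, the regulator needed for eye formation, had 372 and 109, at least 1.99-fold apart. All other probe sets of Pax6 and of Six3 lay under the floor in both heads. Among them, 46.3 and 67.6 for Pax6 and 22.1 and 68.2 for Six3 pointed the other way. Meis2 (3937 and 2056) and Gata3 (266 and 155), both on Chr 2, were also higher in signal in MatDp(dist2), as was Sox1 (333 and 34.1 on its brighter probe set). Others differed little. Maf had 3363.5 and 3330 on its brightest probe set and Pitx3 had 210 and 208, and both turned direction with median centring. Meis1 was 1.19-fold and Mafg 1.34-fold higher with MatDp(dist2). Prox1, Foxe3 and Hsf4, which act in lens development, lay under the floor in both heads.

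Most retina genes were too dim to be measured, and the few that were measured had a higher signal in MatDp(dist2). Of 19 retina genes on the arrays, 12 lay under the floor in both heads. They were Crx, Vsx1, Rax, Rcvrn, Nrl, Six6, Neurod4, Opn1sw, Sag, Gnat1, Gnat2 and Pde6h. The remaining 7 all had a higher signal in MatDp(dist2), with 0.76 as the median log2 ratio. The shares of retina and brain in these signals were not measured. Past 2-fold were Rlbp1, a retinoid carrier (429 and 163), and Lhx2 on Chr 2, a factor of eye and forebrain (924 and 253). With a floor at the 70th percentile of the signals 0 retina genes passed 2-fold, at a 3-fold threshold Lhx2 alone passed, and with an offset of 100 the median was 0.34. Atoh7, which specifies retinal ganglion cells, had 333 and 61.6, a bound under 2-fold. The summed signal of the 19 genes, with the 12 under the floor included, was 4561 in MatDp(dist2) against 2281 in PatDp(dist2). Its largest parts in MatDp(dist2) were Lhx2 and Isl1 (879 and 600). Of 13 pigment genes 5 were measured and 2 were at least 2-fold higher with MatDp(dist2), Pmel (828 and 338) and Dct (748 and 327). Slc45a2 followed at 404 and 289. The pigment list summed to 3104 and 1997, which includes 8 genes under the floor in both heads. Mitf, a regulator of pigment cells, went the other way with 316 and 417 (log2 ratio of -0.40). The pigment genes past 2-fold fell to 0 with a floor at the 70th percentile of the signals or at a 3-fold threshold. Beside these counts of retina and pigment genes, 4.43% of all measured genes were at least 2-fold higher with MatDp(dist2). Kera, a stromal gene of the cornea that other connective tissue also makes, went the other way with 611 and 1118, and the corneal genes Krt12 and Aldh3a1 lay under the floor in both heads. The 9 lens-restricted crystallins summed to 37087 and 352. The part of these tissues in the crystallin difference was not tested.

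**Figure D4:**
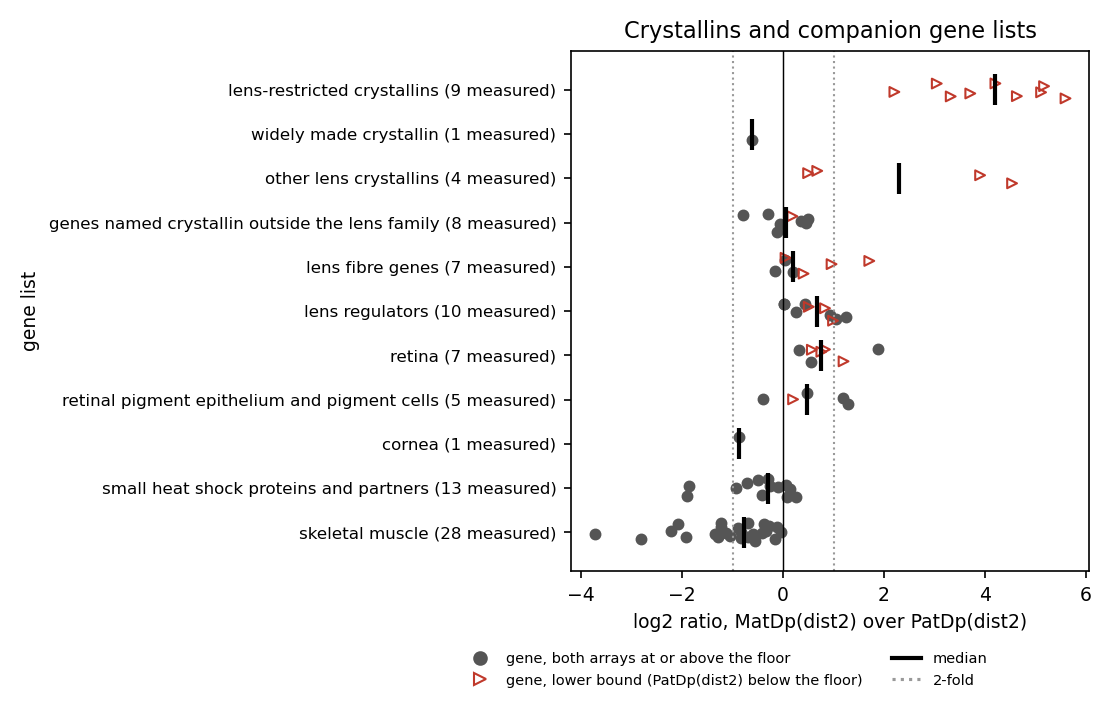
Log2 ratio of each measured gene (grey circles), or its lower bound where PatDp(dist2) lay under the floor (open red triangles), by gene list, with list medians as black bars and 2-fold as dotted lines. The lens-restricted crystallins have a median of 4.21, Cryab lies at -0.62 and the skeletal muscle list at -0.77.

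Cryab lay on the side of the muscle genes and of several small heat shock proteins. All 28 skeletal muscle genes listed were measured and had a higher signal in PatDp(dist2), a direction that turned for 2 of them with quantile normalization and for 3 with the loess fit. A difference of at least 2-fold was reached by 11, where 3.47% of all measured genes were at least 2-fold higher with PatDp(dist2). The median log2 ratio was -0.77, or -0.57 with quantile normalization and -0.56 with the loess fit. Bright genes leaned the same way, 802 of the 1257 with a mean log2 signal of 11 to 12 being lower in MatDp(dist2). The summed signals of the muscle genes were 179824 and 277065. Mb, the oxygen-binding myoglobin (224 and 2983), the fast myosin Myh2 (422 and 2959) and Cox7a1, a respiratory subunit of muscle (1394 and 6510), differed the most. Among those on Chr 2, Ttn (11603 and 17429), Neb (5372 and 9606) and Tnnc2 (15532 and 17244) differed by less than 2-fold. The difference of Cryab, at -0.62, was smaller than the median of this list, and the part of muscle in it was not tested.

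Of 13 measured small heat shock proteins and partner genes, 2 were at least 2-fold higher with PatDp(dist2) and 0 in MatDp(dist2). Over all measured genes these shares were 3.47% and 4.43%. The median log2 ratio of the 13 was -0.30. Hspb6, a small heat shock protein of muscle, gave 550 in MatDp(dist2) against 2053 in PatDp(dist2), 3.73-fold apart. Hspb7, made in heart and skeletal muscle, had 1125 and 4096 on its brightest probe set, 3.64-fold apart, but its other probe sets had 767 and 1192, 1.55-fold apart, and 174.5 and 282.6, at least 1.51-fold apart. Hspb3 had 542 and 1030.3. Hspa8 on Chr 9, the constitutive heat shock protein of all cells, had 15021 and 16185, 1.08-fold apart, and its direction turned with the loess fit.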

How the data were processed

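The deposited values are MAS5 signals, an intensity on a linear scale, made by the authors with MAS5 and GCOS per the submitters' processing notes, without versions. MAS5 subtracts mismatch probes and is noisy at low values. No genome build is named, and detection calls were not used. The mean after trimming 2% at each end was 500.002 on each array.

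Signals were analysed with Python 3.11.15, pandas 2.3.3 and numpy 2.4.6, and aligned with Biopython 1.88. Names of probe sets come from the platform annotation, brought up to date through gene IDs in RefSeq's table for GRCm38.p6 (34741 of 34945 matched). Where a gene had several probe sets, the one with the greatest mean log2 signal stands for it. The floor is the midpoint of the 50th percentiles of the 2 arrays. The ratio calculation was tested on simulated data with differences placed only in genes well above the floor. The bound calculation was checked on a few fixed pairs of signals. No test was run, because each genotype has 1 array, which limits the precision of every value.

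Named from each companion list are the 3 measured genes with the largest difference, any gene 2-fold apart against the list's median, and genes of Chr 2 or Chr 9. Other members are named to account for a count. The members and lists were chosen with earlier results of these data known. Alternatives covered scaling, floor, offset, probe sets and fold threshold.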

Additional observations from a re-analysis of the deposited data

How the results depend on the processing

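All 9 lens-restricted crystallins were at least 2-fold higher with MatDp(dist2) under 7 of the 8 alternatives, and 8 were with the floor at the 70th percentile. The median log2 ratio of 4.21 was 4.19 with median centring, 4.28 with quantile normalization, 4.11 with the loess fit, 5.52 with the floor at the 30th percentile, 2.89 at the 70th and 5.01 with an offset of 100. The log2 ratio of Cryab, -0.62, was -0.66 with median centring, -0.47 with quantile normalization, -0.48 with the loess fit, -0.60 with the offset and -0.30 with the mean over probe sets, which includes the probe set under the floor in both heads. The count of all genes higher with MatDp(dist2), 553, was 833 with the floor at the 30th percentile, 266 at the 70th and 146 at a 3-fold threshold, and the 433 higher with PatDp(dist2) were 100 at 3-fold. Counts of listed genes at least 2-fold higher with MatDp(dist2) ranged over the alternatives from 2 to 4 for the other lens crystallins (2 in the report), 0 to 4 for fibre genes (1), 0 to 4 for lens regulators (2), 0 to 4 for retina (2), 0 to 2 for pigment genes (2), and 0 to 1 for cornea (0) and for genes merely called crystallins (0). The 11 muscle genes higher with PatDp(dist2) were 5 at 3-fold. No paired analysis was possible because each genotype has 1 array. Signals under the floor limit every fold of a lens-restricted member to a bound.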
